A study of Mus musculus with 4 samples.

Results

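Chemokine receptors were described in macrophages of the adult mouse dermis through 9 genes, Cx3cr1, Ccr1, Ccr2, Ccr3, Ccr7, Ccr9, Cxcr2, Cxcr4 and Ccrl2. Each was taken as the array feature (transcript cluster) whose platform annotation gave that single symbol, and all 9 were found among the 22180 genes of the arrays, each with 1 cluster. Cx3cr1 set the sorting gate and served as the reference, so its difference checks the labels and is no finding. The series holds 4 Affymetrix whole-transcript arrays, 2 of CX3CR1low and 2 of CX3CR1bright macrophages, from ear skin of untreated adult C57Bl/6 mice kept under specific-pathogen-free conditions. All animals were Cx3cr1+/gfp, so that both groups carried a GFP reporter on 1 Cx3cr1 allele and an intact copy on the other. Each sample was sorted from the digested skin of 3 to 6 pooled mice, and for either subset the 2 samples were taken from 2 independent litters, so that single animals cannot be told apart.

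Chemokine receptors are G-protein-coupled receptors that turn a gradient of a small secreted protein into directed movement, mostly through Gi proteins, and are then shut off by receptor kinases and arrestins. In skin they bring monocytes and granulocytes out of the blood, hold cells in place, and lead dendritic cells to the draining lymph node. Atypical members such as CCRL2 bind ligand without the usual G-protein signal. Most CC receptor genes lie in clusters that arose by duplication.

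The members are spread over 3 chromosomes in the RefSeq table of assembly GRCm38.p6, with 6 on chromosome 9, 2 on chromosome 1 (Cxcr2 and Cxcr4) and 1 on chromosome 11 (Ccr7). RefSeq promoters of that build were matched by symbol for 8 of the 9 members, all but Ccr7. The 250 bases before the transcript start are printed for the gate gene, for Ccr1, Ccr2 and Ccrl2, whose mean levels differed by at least 2-fold between the subsets, and for Cxcr4, whose levels overlapped. Capitals mark matches, on either strand, to GAGGAA (core of the PU.1 site), GGACTTTCC (a κB-type site), TGANTCA (AP-1) or CCGCCC (the GC box); no match overlapped another motif.
Cx3cr1, GRCm38.p6, chr9:120068297-120068546, minus strand: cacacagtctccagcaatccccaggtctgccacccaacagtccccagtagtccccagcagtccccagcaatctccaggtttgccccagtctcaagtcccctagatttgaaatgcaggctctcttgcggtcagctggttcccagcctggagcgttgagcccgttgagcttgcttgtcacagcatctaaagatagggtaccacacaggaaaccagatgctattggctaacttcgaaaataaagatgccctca
Ccr1, GRCm38.p6, chr9:123968693-123968942, minus strand: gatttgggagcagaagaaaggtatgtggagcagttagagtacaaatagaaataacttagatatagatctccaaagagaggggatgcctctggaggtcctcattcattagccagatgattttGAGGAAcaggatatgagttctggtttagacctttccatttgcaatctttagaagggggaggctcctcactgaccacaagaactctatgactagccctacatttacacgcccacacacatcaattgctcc
Ccr2, GRCm38.p6, chr9:124101933-124102182, plus strand: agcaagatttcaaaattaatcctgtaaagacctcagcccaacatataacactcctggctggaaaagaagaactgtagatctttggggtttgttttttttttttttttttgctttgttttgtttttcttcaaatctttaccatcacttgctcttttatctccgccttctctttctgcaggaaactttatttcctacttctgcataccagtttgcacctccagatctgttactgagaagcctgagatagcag
Ccrl2, GRCm38.p6, chr9:111057519-111057768, minus strand: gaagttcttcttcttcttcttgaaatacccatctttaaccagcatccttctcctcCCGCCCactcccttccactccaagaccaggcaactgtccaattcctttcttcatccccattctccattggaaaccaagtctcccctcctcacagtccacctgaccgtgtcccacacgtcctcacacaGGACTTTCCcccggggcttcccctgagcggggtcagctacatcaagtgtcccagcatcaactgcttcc
Cxcr4, GRCm38.p6, chr1:128592300-128592549, minus strand: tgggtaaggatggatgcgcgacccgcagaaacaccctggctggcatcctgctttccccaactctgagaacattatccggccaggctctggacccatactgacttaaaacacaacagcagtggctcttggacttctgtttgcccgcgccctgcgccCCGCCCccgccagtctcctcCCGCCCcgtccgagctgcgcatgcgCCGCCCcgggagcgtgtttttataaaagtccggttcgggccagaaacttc
The Ccr1 sequence held 1 GAGGAA, a motif found in 23.3% of the 32851 promoter windows of the same length. The Ccrl2 window, upstream of the outermost of its listed starts, held 1 GGACTTTCC, found in 0.283% of windows, and 1 CCGCCC, found in 32.7%. The windows of the other two Ccrl2 starts, which overlap each other, held none of the 4 motifs. The Cxcr4 window held 3 CCGCCC and 19 CpG dinucleotides at a GC content of 61.2%, against a median of 52.4% over all windows. The Ccr2 window was poor in GC, at 37.2% with 1 CpG. In the Cx3cr1 and Ccr2 windows none of the 4 motifs was matched, which says only that these letters are not there. Of the windows not printed, those of Ccr3 and Cxcr2 each held 1 GAGGAA and that of Ccr3 also 1 TGANTCA (6.75% of windows), while Ccr9 held none of the 4.

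Levels are RMA values on the log2 scale, in which a difference of 1 is a doubling. The 4 arrays had medians of 3.65 to 3.68, and a level near these can be background. Macrophage identity was checked with 11 markers, among them Csf1r, Adgre1 and Cd68, all of which lay above the 75th percentile of every array. Of the 11, 0 were higher and 3 lower in CX3CR1bright at an unadjusted p under 0.05 (limma), with a median difference of -0.34; the 3 were Cd68 at -0.64 ± 0.18, C1qc at -0.64 ± 0.19 and Cd163 at -1.10 ± 0.39 (limma, adjusted p = 0.176, 0.182 and 0.225). Other cell types also left transcripts. Keratinocyte markers (9 genes) averaged 6.14 and 5.54 on CX3CR1low replicates 1 and 2, and 6.48 and 7.98 on CX3CR1bright replicates 1 and 2, with CX3CR1bright replicate 2 apart from the rest. Fibroblast markers (10 genes) averaged 6.04 to 6.16 in CX3CR1low and 6.91 to 6.93 in CX3CR1bright. In pooled RNA, more cells of a type and more RNA per cell cannot be told apart.

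Across the 13133 genes above the filter on dim clusters, the subsets were compared with limma, with Benjamini-Hochberg adjustment over all of them and a threshold of 0.05. Of the 9 receptors 8 passed the filter, and Ccr9 was too dim to be tested. At the adjusted threshold 18 genes (0.137% of those tested) were called, of which the gate gene Cx3cr1 was the 1 receptor. Of the 7 other receptors tested, Ccr1, Ccr2, Ccr7 and Ccrl2 had an unadjusted p under 0.05 (limma), all 4 higher in CX3CR1bright cells, where 7.03% of tested genes were higher at that level and 11.8% lower. Those 4 were also the ones higher by 2-fold or more with no CX3CR1low array reaching a CX3CR1bright array, against 2.94% of all tested genes (2.91% to 3.52% after other scalings of the arrays). With no fold limit, 6 of the 8 tested receptors, the gate gene included, were higher without overlap. Of the 13133 tested genes 2483 were higher and 4132 lower in that way. The median difference of the 7 receptors other than the gate gene was 1.24, and that of all tested genes was -0.070. This is a count over a small set chosen with earlier results known.

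**Figure D1:**
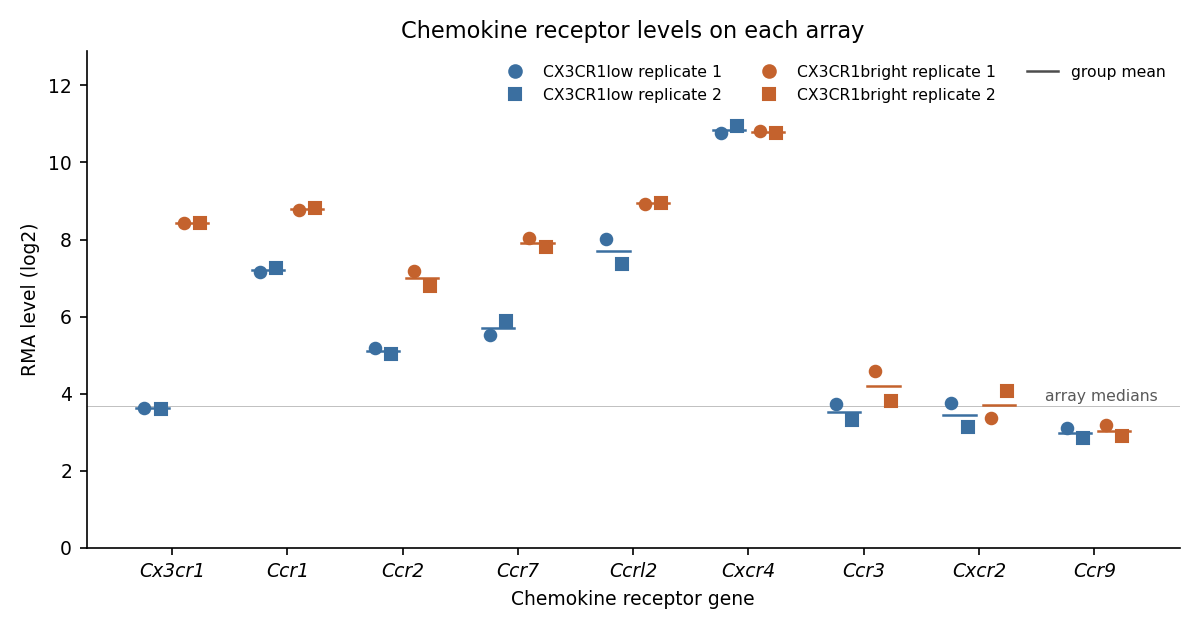
Levels of the 9 receptor genes on each array (y axis, RMA log2 level; circles replicate 1, squares replicate 2, short lines group means of n = 2, grey line the array medians of 3.65 to 3.68). The CX3CR1bright arrays lie above the CX3CR1low arrays for Cx3cr1, Ccr1, Ccr2, Ccr7, Ccrl2 and Ccr3, with CX3CR1bright replicate 2 close to CX3CR1low for Ccr3, while the groups overlap for Cxcr4, Cxcr2 and Ccr9. Among all 13133 tested genes, 2483 were higher and 4132 lower without overlap.

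Cx3cr1 encodes the receptor for fractalkine, a chemokine that is also displayed bound to membranes. It stood at 3.63 and 3.60 on CX3CR1low replicates 1 and 2 and at 8.42 and 8.44 on CX3CR1bright replicates 1 and 2. The labels and the transcript thus go the same way, and the CX3CR1low arrays lie below their medians, which limits the size of the difference from below. That difference was 4.82 ± 0.18 (SE, n = 2 per subset). Fractalkine's own gene, Cx3cl1, lay at 4.31 and 4.26 in CX3CR1low and at 4.54 and 4.62 in CX3CR1bright, a difference of 0.29 ± 0.18 (limma, adjusted p = 0.451).

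Among the receptors of inflammatory chemokines, Ccr1 and Ccr2 lay higher in CX3CR1bright on every array. Ccr1, a receptor for CCL3, CCL5 and other ligands on monocytes and macrophages, stood at 7.15 and 7.27 on the CX3CR1low arrays and at 8.75 and 8.83 on the CX3CR1bright arrays. All 4 levels lay above the 75th percentile of their array and the subsets did not overlap. The difference was 1.58 ± 0.18 (SE), 2.99-fold, with a 95% interval of 1.12 to 2.04 (limma, unadjusted p = 0.000260, adjusted p = 0.0632). The replicates were 0.11 apart in CX3CR1low and 0.073 in CX3CR1bright.

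Ccr2, which brings classical monocytes from bone marrow and blood into tissue, stood at 5.18 and 5.02 in CX3CR1low and at 7.19 and 6.80 in CX3CR1bright. Its CX3CR1low levels lay above the array medians but below the 75th percentiles, which were 5.44 to 5.52, and its CX3CR1bright levels lay above both. The difference was 1.90 ± 0.22 (SE), 3.72-fold, with a 95% interval of 1.34 to 2.45 (limma, adjusted p = 0.0632). Under the 14 other settings the adjusted p ran from 0.0148 to 0.419 for Ccr1 and from 0.0176 to 0.419 for Ccr2, and both kept their sign in all 14. Both passed with a stricter filter on dim genes (limma, adjusted p = 0.0176 for each) and with an intensity trend in the variance model (limma, adjusted p = 0.0148 and 0.0256). Of all genes, 464 of 7327 tested passed with the stricter filter and 308 of 13133 with the trend. The stricter filter asked for 2 arrays above their 75th percentile. Ccr2 met it through its CX3CR1bright arrays alone, so that its pass there is no support.

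Monocyte markers went both ways beside Ccr2. Of 8 tested, Fn1, a matrix glycoprotein, and Vcan, a proteoglycan, had an unadjusted p under 0.05 and higher levels in CX3CR1bright, with differences of 1.34 ± 0.24 and 0.86 ± 0.18, and F13a1, a coagulation factor subunit, had a lower level, with -1.15 ± 0.27 (limma, adjusted p = 0.1001, 0.112 and 0.134). The mean level of the 9 listed markers was 7.17 and 6.6 on the CX3CR1low arrays and 7.33 and 6.81 on the CX3CR1bright arrays, with overlap. Their part in the difference of Ccr2 was not tested.

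Ccr7, which guides dendritic cells and naive T cells along CCL19 and CCL21 to the lymph node, had the largest difference of the receptors other than the gate gene. It stood at 5.51 and 5.88 in CX3CR1low and at 8.04 and 7.79 in CX3CR1bright. The subsets were separated by at least 1.91, while replicates were 0.37 apart in CX3CR1low and 0.25 in CX3CR1bright. The difference was 2.22 ± 0.22 (SE), 4.66-fold, with a 95% interval of 1.65 to 2.79 (limma, adjusted p = 0.0541), and 32 of the 13133 tested genes had a larger one in the same direction. Ccr7 passed the threshold after cyclic loess (limma, adjusted p = 0.0475), with the stricter filter (0.0150), with the intensity trend (0.0152) and without CX3CR1bright replicate 1 (0.0482), in a range of 0.0150 to 0.341 over the 14 settings.

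Several dendritic cell markers had higher levels on the same arrays. Of 10 tested markers of conventional dendritic cells, 5 were higher at an unadjusted p under 0.05 and 1 was lower (limma), with a median difference of 0.62. Flt3, the growth factor receptor of the dendritic lineage, stood at 4.06 and 4.58 in CX3CR1low and 6.41 and 6.50 in CX3CR1bright, and Zbtb46, a transcription factor of that lineage, at 5.19 and 5.31 against 5.85 and 6.13. Their differences were 2.13 ± 0.24 and 0.74 ± 0.20 (limma, adjusted p = 0.0632 and 0.162). The integrin gene Itgax and the peptidase gene Dpp4 differed by 1.69 ± 0.27 and 1.05 ± 0.20 (limma, adjusted p = 0.0913 and 0.103). The lower gene was Kmo, an enzyme of tryptophan breakdown, at -0.68 ± 0.23, and the transcription factor genes Irf4 and Irf8 had differences of -0.55 ± 0.24 and -0.42 ± 0.24 (limma, adjusted p = 0.216, 0.302 and 0.414). Markers of migratory dendritic cells, the state in which CCR7 is best known, went less evenly, with 4 of 11 tested higher at an unadjusted p under 0.05, 1 lower and a median difference of 0.21. The chemokine genes Ccl22 and Ccl17 differed by 1.69 ± 0.22 and 2.42 ± 0.64 (limma, adjusted p = 0.0706 and 0.157), whereas Fscn1, the actin bundler of mature dendritic cells, differed by 0.21 ± 0.23, and Relb by -0.14 ± 0.18 (limma, adjusted p = 0.683 and 0.734). Of the Langerhans cell markers 4 of 6 tested were higher at an unadjusted p under 0.05 and 0 lower, led by Il1r2 and Cd207 with differences of 1.88 ± 0.23 and 2.24 ± 0.28 (limma, adjusted p = 0.0706 for each). T cell genes were present too, with 2 of 6 tested higher at an unadjusted p under 0.05 and 0 lower (limma). These were Il7r, the interleukin-7 receptor gene that innate lymphoid and some myeloid cells can also carry, with a difference of 1.56 ± 0.18, and Cd3g (limma, adjusted p = 0.0632 and 0.215). Cd3g stood at 4.83 and 4.64 in CX3CR1low and at 6.88 and 5.43 in CX3CR1bright. Cd3e stood at 4.28 and 3.80 against 4.79 and 3.81. The part of these cell types in the level of Ccr7 was not tested.

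**Figure D2:**
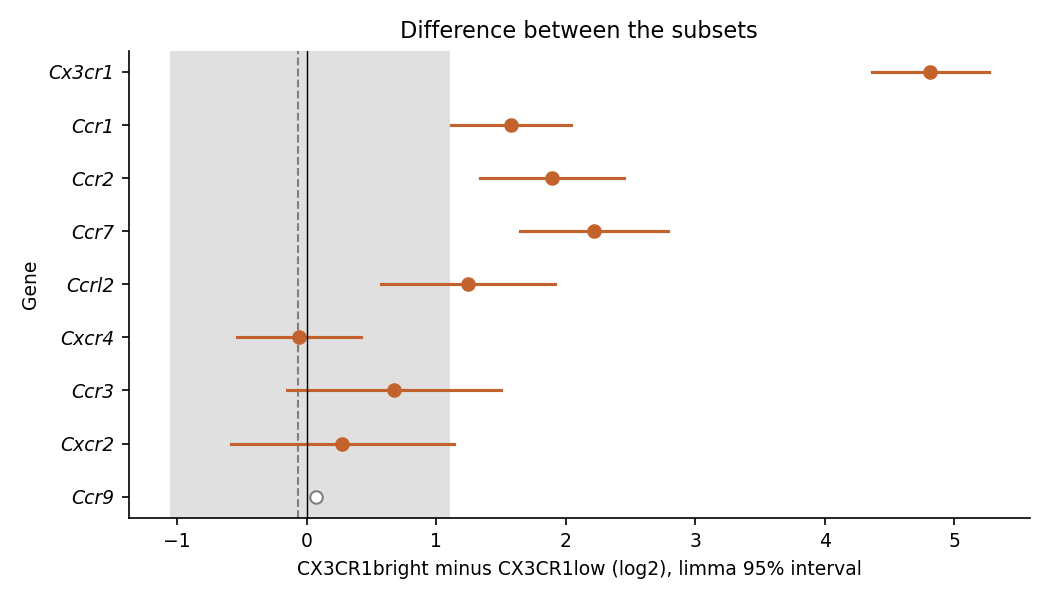
Difference between the subsets for each receptor (x axis, CX3CR1bright minus CX3CR1low, log2; points are limma estimates and lines their 95% intervals, n = 2 per subset; the open point, Ccr9, was not tested). The grey band is the central 95% of all tested genes, -1.06 to 1.1, and the dashed line their median of -0.070; the points of Ccr1, Ccr2, Ccr7 and Ccrl2 lie to the right of the band.

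Ccrl2, an atypical receptor that binds chemerin and presents it to neighbouring cells, stood at 8.02 and 7.37 in CX3CR1low and at 8.93 and 8.95 in CX3CR1bright. The CX3CR1bright arrays differed by 0.024 and the CX3CR1low arrays by 0.64, so that nearly all the spread came from CX3CR1low. The difference was 1.24 ± 0.27 (SE), 2.37-fold, with a 95% interval of 0.57 to 1.92 (limma, unadjusted p = 0.00475, adjusted p = 0.117). It was 0.92 without CX3CR1low replicate 2 and 1.56 without CX3CR1low replicate 1. Of the 14 other settings the stricter filter alone took it past the threshold (limma, adjusted p = 0.0490, in a range up to 0.495). Cmklr1, the signalling receptor for chemerin, stood at 6.48 and 6.57 in CX3CR1low and at 6.40 and 6.10 in CX3CR1bright, with a difference of -0.28 ± 0.20 (limma, adjusted p = 0.524). Mast cells are known to carry Ccrl2, and their markers were present, with a mean over 10 genes of 6.40 and 6.45 in CX3CR1low against 6.05 and 6.04 in CX3CR1bright. Of 8 mast cell markers tested 0 were higher and 3 lower at an unadjusted p under 0.05 (limma; 0 at the adjusted threshold), and the defining protease gene Cpa3 stood at 9.78 to 10.04 on the 4 arrays. The part of mast cells in the level of Ccrl2 was not tested.

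Cxcr4, the receptor for CXCL12 that retains leukocytes in tissue and marrow, stood at 10.75 and 10.95 in CX3CR1low and at 10.82 and 10.75 in CX3CR1bright. The subsets overlapped and every array lay above its 75th percentile. The difference was -0.060 ± 0.19 (SE), with a 95% interval of -0.54 to 0.42 (limma, adjusted p = 0.903), and it was 0.058 after quantile normalization and 0.048 after cyclic loess. A change of 2-fold in either direction lies outside that interval. Its ligand gene Cxcl12 was dim, at 3.63 and 4.09 against 4.36 and 4.36, a difference of 0.50 ± 0.23 (limma, adjusted p = 0.319).

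Ccr3, Cxcr2 and Ccr9, receptors of granulocytes and gut-homing lymphocytes, lay near background in both subsets. Ccr3, the eotaxin receptor of eosinophils, stood at 3.74 and 3.31 in CX3CR1low and at 4.59 and 3.81 in CX3CR1bright. The groups did not overlap, but by 0.069 alone. The difference was 0.67 ± 0.33 (limma, adjusted p = 0.343), with an interval of -0.15 to 1.5; leaving out CX3CR1bright replicate 1 gave 0.28, leaving out CX3CR1low replicate 2 gave 0.46 and leaving out CX3CR1bright replicate 2 gave 1.07. The unadjusted p of 0.0915 became 0.0123 without CX3CR1bright replicate 2 and 0.0264 with the replicate number as a block (limma, adjusted p = 0.196 and 0.202), so that the count of receptors at an unadjusted p under 0.05 was 6 in place of 5, the gate gene included; without CX3CR1bright replicate 2 the count higher by 2-fold without overlap was 6 too, against 5 over all arrays, and it was 4 without CX3CR1low replicate 2. The eosinophil granule gene Prg2 was also highest on CX3CR1bright replicate 1, at 5.60 against 2.98 on CX3CR1bright replicate 2 and 4.21 and 3.79 on CX3CR1low replicates 1 and 2. Epx, the eosinophil peroxidase gene, stood at 2.11 to 2.59 on the 4 arrays, below their medians. The listed eosinophil markers did not go one way. Epx and Il5ra were highest on CX3CR1bright replicate 1, at 2.59 and 3.38. Siglecf, Gata1 and Ear6 were highest on CX3CR1bright replicate 2, at 3.89, 3.98 and 3.06. What eosinophil transcripts contributed to Ccr3 was not tested.

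Cxcr2, the receptor that draws neutrophils to CXCL1 and related chemokines, stood at 3.75 and 3.13 in CX3CR1low and at 3.36 and 4.07 in CX3CR1bright. The lowest and the highest level belonged to different subsets and the groups overlapped, with a difference of 0.28 ± 0.34 (limma, adjusted p = 0.722). Leaving out CX3CR1low replicate 2 gave -0.034 and leaving out CX3CR1bright replicate 2 gave -0.081, while leaving out replicate 1 of CX3CR1low or of CX3CR1bright gave 0.59 or 0.63. Of the neutrophil markers 4 of 10 were tested, of which 0 were higher and 2 lower in CX3CR1bright at an unadjusted p under 0.05 (limma). The lower ones were Csf3r, the receptor for G-CSF, at 8.67 and 8.74 in CX3CR1low against 8.14 and 7.18 in CX3CR1bright, and the protease gene Mmp9, at 5.80 and 5.66 against 4.74 and 4.74 (limma, adjusted p = 0.207 and 0.102). Ly6g lay below the median of every array, at 2.94 to 3.41, and so did S100a8, at 2.94 and 2.77 in CX3CR1low against 3.61 and 3.38 in CX3CR1bright. S100a9 stood at 2.84 and 3.17 against 4.41 and 3.65, and passed the median on CX3CR1bright replicate 1 alone. Too dim to be tested, S100a8 and S100a9 were higher in CX3CR1bright without overlap, with differences of 0.64 and 1.02. The part of neutrophil transcripts in the level of Cxcr2 was not tested. Ccr9, the receptor for CCL25 on gut-homing T cells and plasmacytoid dendritic cells, stood at 3.10 and 2.84 against 3.19 and 2.90, below the median on all 4 arrays. The plasmacytoid gene Siglech, which other myeloid cells can also carry, stood at 6.32 to 6.83, with a difference of 0.25 ± 0.21 (limma, adjusted p = 0.570).

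The receptor genes next to each other on chromosome 9 stood apart in their differences between the subsets, which were not tested against each other. In the order of the RefSeq table the protein-coding genes run Ccr9, Fyco1, Cxcr6, Xcr1, Ccr1, Ccr1l1, Ccr3 and Ccr2. Ccr1 and Ccr2 had the differences of 1.58 and 1.90 given above. Between them lie Ccr1l1, a little-studied relative of Ccr1 that was at 2.05 to 3.04 and too dim to be tested, and Ccr3. Xcr1, the receptor of cross-presenting dendritic cells, differed by -0.098 ± 0.23 (limma, adjusted p = 0.866). Cxcr6, a receptor of tissue-resident lymphocytes, differed by 0.72 ± 0.25 (limma, adjusted p = 0.220), at 4.47 and 4.38 against 5.43 and 4.87. Fyco1, which is no receptor gene but an adaptor of vesicle transport, differed by -0.26 ± 0.19 (limma, adjusted p = 0.516).

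**Figure D3:**
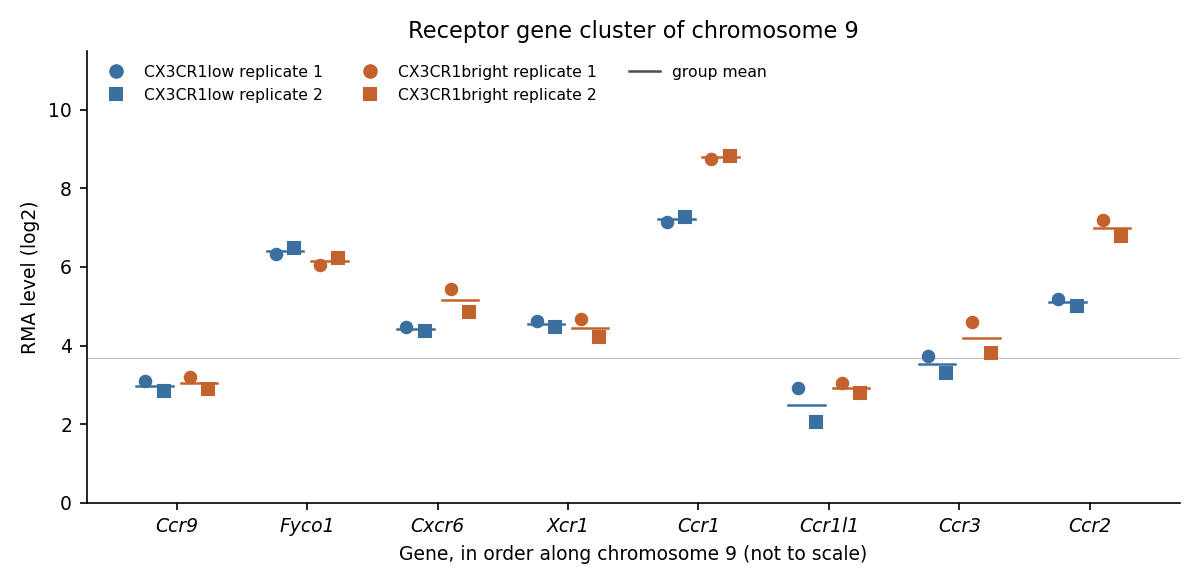
Levels of 8 neighbouring genes in their order along chromosome 9, not to scale (y axis, RMA log2 level; circles replicate 1, squares replicate 2, short lines group means of n = 2, grey line the array medians). Ccr1 and Ccr2 lie higher in CX3CR1bright by 1.58 and 1.90, and Ccr9 and Ccr1l1 lie below the array medians in both subsets.

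The other chemokine receptors of a list drawn up for this family were mostly dim. Of 15 listed 9 were tested; 0 passed the adjusted threshold, 1 was higher and 2 were lower at an unadjusted p under 0.05 (limma), and the median difference was -0.098. The higher gene was Cxcr6. The lower genes were Cxcr3, the receptor for interferon-induced chemokines such as CXCL10, at 6.64 and 6.71 in CX3CR1low against 5.93 and 5.55 in CX3CR1bright, and Ackr2, a scavenger of inflammatory CC chemokines, at 4.42 and 4.08 against 3.66 and 3.65. Their differences were -0.93 ± 0.21 and -0.60 ± 0.21 (limma, adjusted p = 0.132 and 0.222). Cxcr1, the other receptor of neutrophil-attracting chemokines, differed by 0.16 ± 0.28 (limma, adjusted p = 0.812). Ccr6, Ccr8, Ccr10, Ackr1, Ackr4 and Ccr1l1 were too dim to be tested.

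The ligands of the members were spread to both sides. Of 22 listed 19 were tested and 0 passed the adjusted threshold. At an unadjusted p under 0.05 (limma) 5 were higher and 7 lower in CX3CR1bright, with a median of -0.19 over those tested. The 5 were Ccl4, Ccl5, Cxcl1, Cxcl2 and Cxcl3, and the 7 were Ccl2, Ccl7, Ccl8, Ccl11, Ccl12, Ccl24 and Ccl25. Ccl4 differed by 0.84 ± 0.24 (limma, adjusted p = 0.175). Ligands of CCR2, which attract monocytes, had lower levels where Ccr2 was higher. Ccl2 stood at 11.1 and 11.0 in CX3CR1bright against 11.8 and 11.7 in CX3CR1low, a difference of -0.72 ± 0.18. Ccl7 differed by -0.82 ± 0.19 and Ccl12 by -0.89 ± 0.24 (limma, adjusted p = 0.150, 0.133 and 0.160 in that order). Both eotaxin genes on the list, whose products act on CCR3, also had negative differences, Ccl24 with -1.42 ± 0.23 and Ccl11 with -0.87 ± 0.31 (limma, adjusted p = 0.0913 and 0.223). Ccl8, a further monocyte attractant, differed by -1.37 ± 0.32 (limma, adjusted p = 0.135).

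The ligands of CCR1 did not go one way. Ccl5 differed by 1.39 ± 0.43 and Ccl3 by 0.53 ± 0.26, while Ccl6 differed by -0.90 ± 0.44 and Ccl9 by -0.52 ± 0.26 (limma, adjusted p = 0.190, 0.340, 0.342 and 0.364). Of the ligands of CXCR2, Cxcl1, Cxcl2, Cxcl3 and Ppbp were well above background although the receptor was not. Cxcl1 stood at 10.1 and 9.94 in CX3CR1low against 10.6 and 10.6 in CX3CR1bright. Cxcl1, Cxcl2 and Cxcl3 differed by 0.62 ± 0.18, 0.61 ± 0.19 and 0.90 ± 0.24 (limma, adjusted p = 0.180, 0.192 and 0.161). Ccl19, Ccl21a and the chemerin gene Rarres2 were not analysed here.

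**Figure D4:**
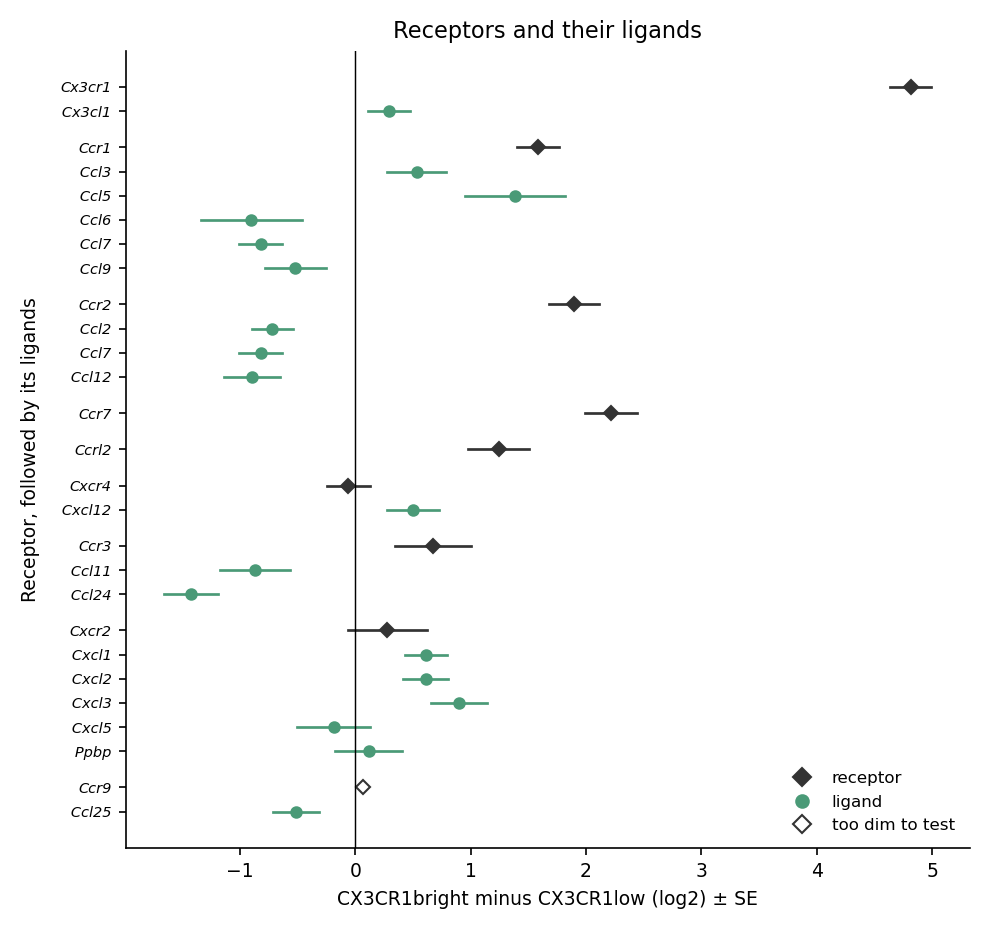
Differences of the receptors (diamonds) and of the ligands listed for each (circles), as log2 differences, CX3CR1bright minus CX3CR1low, with the limma SE (n = 2 per subset; the open symbol was not tested). The CCR2 ligand genes Ccl2, Ccl7 and Ccl12 and the eotaxin genes Ccl11 and Ccl24 lie left of 0. The receptors Ccr2 and Ccr3 lie right of 0, as do the ligand genes Ccl5, Cxcl1, Cxcl2 and Cxcl3.

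Genes of the signalling chain behind the receptors were present on all arrays. Of 27 tested 0 passed the adjusted threshold, 4 were higher and 3 lower at an unadjusted p under 0.05 (limma), and the median was 0.018. The regulator Rgs1, which speeds the shut-off of Gi proteins, stood at 7.31 and 7.14 in CX3CR1low and at 8.34 and 8.20 in CX3CR1bright, with a difference of 1.05 ± 0.19. The kinase gene Ptk2b and the receptor kinase gene Grk3 differed by 0.90 ± 0.23 and 0.75 ± 0.21, and Gng2, a G-protein gamma subunit, by -1.03 ± 0.23 (limma, adjusted p = 0.1001, 0.151, 0.176 and 0.124 in that order). The Gi subunit gene Gnai2 differed by -0.18 ± 0.18 (limma, adjusted p = 0.649) and the arrestin genes Arrb1 and Arrb2 by -0.44 ± 0.20 and 0.44 ± 0.24 (limma, adjusted p = 0.325 and 0.386).

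Likeness of pattern was measured as the Euclidean distance between the 4 centred log2 levels, among 11996 other tested genes, and is a description over 4 arrays. Nearest to Ccr1 was Cd9, a tetraspanin, at a distance of 0.039, with levels of 7.44, 7.52, 8.99 and 9.08 on CX3CR1low replicates 1 and 2 and CX3CR1bright replicates 1 and 2. Nearest to Ccr2 were Helz2 and Ccl22 at 0.20 and 0.21, and nearest to Ccr7 were Timd4 and Il21r at 0.20 and 0.26. Nearest to Ccrl2 were Mthfs at 0.043 and Ets1 at 0.082; both showed the wide gap between the CX3CR1low arrays. The nearest genes to Cxcr4 were Jph4 at 0.011 and Akap13 at 0.024, with differences of -0.050 and -0.049 between the subsets. The nearest genes to Cx3cr1, F11r and Col14a1, were at 0.95 and 1.02. For the dim members the nearest were Tmco6 (0.11) and Tmtc2 (0.14) to Ccr3 and Gfy (0.079) and Arhgap40 (0.092) to Cxcr2. Sult2a5, the second nearest gene to Ccr1, was at 0.18.

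Markers of other cell types differed between the CX3CR1bright arrays. From CX3CR1bright replicate 1 to replicate 2 the mean keratinocyte marker level differed by 1.5 and the Langerhans cell mean by 1.28. The latter came mostly from Epcam, Cdh1 and Cldn1, at 4.53, 6.47 and 6.89 on replicate 1 against 6.73, 9.24 and 8.81 on replicate 2. Cd207 stood at 6.97 and 7.54 on replicates 1 and 2, Kcnn4 at 9.86 and 10.3, and Il1r2 at 8.18 and 7.98. Ccr1 differed by 0.073 and Ccrl2 by 0.024. Ccr2 and Ccr7 were lower on replicate 2, by -0.39 and -0.25. Without CX3CR1bright replicate 2 the differences between the subsets were 1.54 for Ccr1, 2.09 for Ccr2, 2.34 for Ccr7 and 1.23 for Ccrl2. T cell markers had the opposite gap, with a mean lower by -0.87 on replicate 2; without CX3CR1bright replicate 1 the differences were 1.62, 1.70, 2.10 and 1.26 in the same order. Fibroblast markers differed between the subsets on both replicates, 8 of 10 being higher at an unadjusted p under 0.05 (limma), led by Col1a1, a collagen chain gene, at 1.33 ± 0.19 (limma, adjusted p = 0.0819). The part of keratinocyte, Langerhans cell, T cell and fibroblast transcripts in the receptor levels was not tested.

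**Figure D5:**
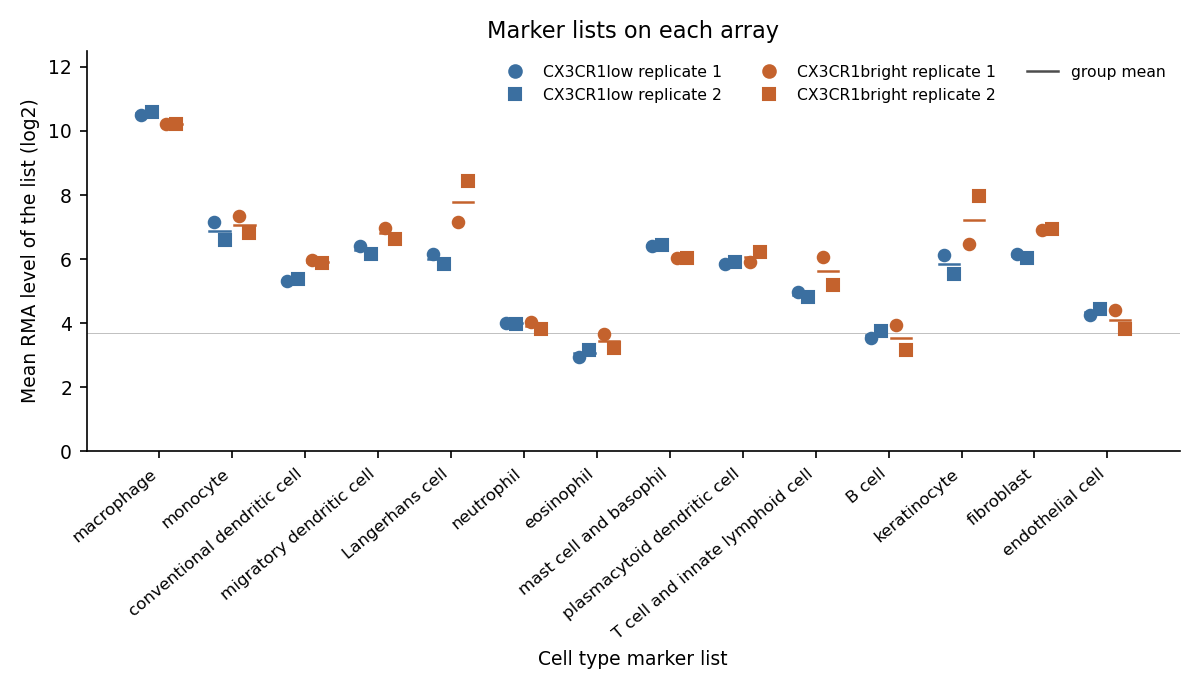
Mean level of each cell type marker list on each array (y axis, RMA log2; circles replicate 1, squares replicate 2, short lines group means of n = 2, grey line the array medians). The macrophage list lies at 10.2 to 10.6 on all arrays, the keratinocyte and Langerhans cell lists are highest on CX3CR1bright replicate 2, and the neutrophil, eosinophil and B cell lists lie near the array medians.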

How the data were processed

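RNA of 4 sorted samples, 2 per subset, was measured on 1-colour Affymetrix arrays after labelling with WT Pico reagents, per the labels' protocols. The deposited values are log2 levels, and the submitters' processing notes name RMA and Affymetrix Expression Console 1.4; probe intensities and detection calls were not used here, and the authors' genome build is not given in the sources used here. Of 34390 clusters 23521 carried 1 symbol, and the cluster with the highest mean stood for a gene. Testing required 2 or more arrays above their own median. The subsets were compared with lmFit and eBayes of limma 3.58.1, run in R 4.3.3 (two-sided, 2 residual and 3.28 prior degrees of freedom). Having 2 arrays per subset limits the precision; the p-values reflect how pools of mice, not animals, vary. The procedure was tested on simulated data. Promoters came from RefSeq, GRCm38.p6.

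The receptors, gene lists, motifs and settings were chosen with earlier results of these data known. All receptors were named; the rule also named the 4 tested genes with the smallest p of each list, which the text does not follow in full: it names those, and defining markers, where a list bears on a receptor, and gives other lists by counts; for likeness it names the 2 nearest genes by distance, leaving out predicted and clone-derived genes and small RNAs. At an unadjusted p under 0.05 (limma), 3 of 8 keratinocyte genes were higher in CX3CR1bright, 1 of 6 endothelial genes (Cdh5) was lower, and 0 of 3 B cell, 0 of 3 eosinophil and 0 of 5 plasmacytoid genes were called. Alternatives were other filters, scalings, variance models, the replicate number as a block, the mean of a gene's clusters, a threshold of 0.10 and each array left out in turn.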

Additional observations from a re-analysis of the deposited data

How the results depend on the processing

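Of 126 differences (9 receptors under 14 alternatives), 105 kept their sign and their side of the threshold or, where not tested, moved by less than the replicate SD, 12 passed it, 4 lost it and 5, all of tested receptors, changed sign. Ccr9, not tested in the main fit, kept its sign in 12 of 14 alternatives and is counted among the 105 throughout. Receptors past the threshold numbered 1, and 5 with a stricter filter, 4 with an intensity trend or a threshold of 0.10, 2 after cyclic loess, 0 with the replicate block and 0 to 2 with 1 array left out. The count of all genes was 18, and 1 with no filter, after quantile normalization or with a robust prior, 464 with the stricter filter, 33 after cyclic loess (19 higher and 14 lower, against 8 and 10), 308 with the intensity trend, 293 at a threshold of 0.10 and 0 to 154 with 1 array left out. It was 0 with the replicate number as a block (limma, 2637 genes at an unadjusted p under 0.05), where Cx3cr1 kept its difference of 4.82 at an adjusted p of 0.129; the labels do not say that a number marks a shared litter, and the deviations of same-numbered arrays correlated at 0.155. Cx3cr1 was the 1 receptor with a call to lose. It lost that call when CX3CR1low replicate 1, CX3CR1low replicate 2 or CX3CR1bright replicate 2 was omitted, with differences of 4.83, 4.8 and 4.81 in that order. Cxcr4 changed sign after quantile normalization (0.058), after cyclic loess (0.048) and without CX3CR1low replicate 2, with -0.16 to 0.036 when 1 array was left out, and Cxcr2 without CX3CR1low replicate 2 and CX3CR1bright replicate 2, with -0.081 to 0.63 (for Ccr9, not tested, -0.077 to 0.22); the cause was not tested. By 2-fold or more without overlap 386 genes were higher and 379 lower, against 462 and 260 once cyclic loess was applied. At an unadjusted p under 0.05 (limma) 923 were higher and 1544 lower, against 1190 and 1114. Levels near the array medians limit what can be said of Ccr3, Cxcr2, Ccr9 and Cx3cr1 in CX3CR1low cells. Cx3cr1 and Ccr2 met the stricter filter through their CX3CR1bright arrays alone.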

Other observations

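The monocyte gene Ly6c2 separated the arrays by replicate number and not by subset. It stood at 7.54 and 6.89 on replicate 1 of CX3CR1low and CX3CR1bright and at 3.9 and 4.66 on replicate 2. Plac8, another monocyte gene, was likewise higher on replicate 1 of each subset, at 5.77 and 6.35 against 4.35 and 5.37. The listed monocyte markers did not go one way by replicate. Chil3 and S100a4 were also higher on replicate 1 of each subset, whereas F13a1 and Itgam were lower there. F13a1 stood at 10.5 and 9.40 on replicate 1 against 11.0 and 9.78, and Itgam at 9.53 and 9.77 against 9.94 and 9.99. Fn1, Vcan and Ly6c1 went opposite ways in the subsets. Ccr2, by which such monocytes enter tissue, stood at 5.18 and 7.19 on replicate 1 and at 5.02 and 6.80 on replicate 2, so that the subsets were further apart than the replicates. These genes were chosen after their values were seen, and the part of monocyte transcripts in the Ccr2 levels was not tested.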
